A study of Homo sapiens with 4 samples.

Results

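The data described here are the mRNA levels of 8 transcription factors of the intestinal epithelium, CDX1, CDX2, HNF4A, GATA6, KLF4, KLF5, EHF and ELF3, in colorectal cancer cells grown attached or as spheroids. The genes were taken by name from a table of 58735 genes, in which each of the 8 symbols had 1 row. The 4 RNA-seq libraries came from HCT116 adherent cells, HCT116 spheroids, LOVO adherent cells and LOVO spheroids, with 1 library per condition, so no value has a replicate. Both lines were derived from human colorectal cancers, and they are labelled WT here and were maintained in medium with 10% fetal bovine serum. The adherent cells were labelled as untreated. The spheroids were labelled as treated at 1 mg/ml with no agent named, whereas the methods of the study name oxaliplatin, a platinum drug, at the same figure in micrograms per ml. Spheroids were also grown without serum, with added growth factors, so the effects of form, medium and drug cannot be told apart.

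These factors belong to 5 families and act in the nucleus of the cells that line the gut. CDX1 and CDX2 are caudal homeobox proteins, and CDX2 is known for giving the intestinal epithelium its identity. HNF4A, a nuclear receptor, and GATA6, a zinc finger protein, switch on genes of enterocytes such as those of the brush border and of lipid uptake. KLF5 is known for its activity in dividing crypt cells and KLF4 for its activity in differentiated cells nearer to the surface. EHF and ELF3 are ETS factors that are expressed mainly in epithelia.

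The labels were first set against marker genes, and the libraries labelled LOVO were lower in epithelial markers than HCT116 and near 0 in E-cadherin, which goes against LOVO as it is known, an epithelial line. Of 6 epithelial markers, all 6 were at 1 FPKM or more in both HCT116 libraries, 4 in LOVO adherent cells and 5 in LOVO spheroids (FPKM, the fragments counted on a gene divided by its length in kilobases and by the library size in units of 1000000 fragments). EPCAM was at 85.6 and 79.3 FPKM in HCT116 adherent cells and spheroids and at 0.930 and 1.50 in the LOVO libraries. CDH1, which encodes E-cadherin, was at 31.1 FPKM in both HCT116 libraries and at 0.117 and 0.00805 in the LOVO libraries, whereas the keratins KRT8 and KRT18 were present in all 4. KRT19 was at 808.1 and 543.1 FPKM in HCT116 and 14.9 and 4.85 in LOVO, and CLDN7 was at 87.1 and 41.4 in HCT116 and 26.8 and 19.1 in LOVO. The summed level of the 6 markers was 1836 and 1319 FPKM in HCT116 and 353.5 and 206.0 in the libraries labelled LOVO. The 5 fibroblast markers summed to 5.52 and 15.9 FPKM in HCT116 and to 52.5 and 71.6 in the LOVO libraries, where LUM reached 31.4 and 50.4 and DCN 10.4 and 9.97, while COL1A2 had 0 reads in adherent cells and 1 in spheroids. COL1A1 made up most of the HCT116 sum, at 5.51 and 15.5 FPKM, and was at 9.89 and 6.10 in LOVO. PECAM1, an endothelial marker, was at 6.35 FPKM in LOVO spheroids, and the 3 endothelial markers summed to between 0.254 and 7.84 across the libraries. The 4 leukocyte markers summed to at most 0.648 FPKM, the 5 gastric markers to at most 2.17, and the 4 hepatocyte markers to between 0.0683 and 12.9, most of it SERPINA1. None of the 5 intestinal markers VIL1, CDH17, LGALS4, GPA33 and GUCY2C reached 1 FPKM in any library, and the highest value among them was 0.381 in HCT116 spheroids. What part these differences have in the results was not tested. Values of HCT116 are therefore given on their own throughout, and every comparison between the lines rests on the libraries as labelled.

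Promoters are shown for CDX2, which had reads in one line and none in the other, and for EHF, the factor that differed most between growth forms. They are RefSeq sequences of GRCh38.p14, the 250 bases before an annotated start read on the strand of the gene, and these RNA data do not tell which start was used. The CDX2 promoter lies at chr13:27969316-27969565 on the minus strand, and capitals mark TTTAT or its reverse complement ATAAA, the core that CDX proteins are known to bind. The matches lie 179 and 120 bases before the start. These letters were found in 32.7% of 35116 promoters of the same length, so a match is a description only.
CDX2: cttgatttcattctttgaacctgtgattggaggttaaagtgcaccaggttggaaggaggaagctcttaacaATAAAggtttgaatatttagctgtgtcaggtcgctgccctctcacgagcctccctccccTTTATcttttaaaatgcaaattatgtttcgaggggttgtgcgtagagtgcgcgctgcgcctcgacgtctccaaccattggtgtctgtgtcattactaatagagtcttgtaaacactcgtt
RefSeq gives 2 starts of EHF in this table, at chr11:34624007-34624256 and chr11:34632316-34632565, both on the plus strand. Capitals mark CACCC or its reverse complement GGGTG, the core bound by KLF proteins such as KLF4 and KLF5, which was found in 54.7% of all promoters. The first of the EHF promoters held 4 matches, at 248, 243, 57 and 15 bases before the start, and the second held 0.
EHF, upstream start: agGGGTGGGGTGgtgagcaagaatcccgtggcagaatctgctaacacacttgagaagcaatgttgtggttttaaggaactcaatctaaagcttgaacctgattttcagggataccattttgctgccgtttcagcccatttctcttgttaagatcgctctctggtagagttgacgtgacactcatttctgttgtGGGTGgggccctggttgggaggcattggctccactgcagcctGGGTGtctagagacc
EHF, downstream start: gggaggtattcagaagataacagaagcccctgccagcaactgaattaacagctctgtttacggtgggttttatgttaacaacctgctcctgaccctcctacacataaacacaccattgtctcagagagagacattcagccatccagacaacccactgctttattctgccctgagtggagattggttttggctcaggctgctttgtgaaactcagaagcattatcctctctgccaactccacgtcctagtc
The EHF promoters were poor in CpG, with 4 and 2 CG pairs, and that of CDX2 had 10, against a median of 11 over all promoters. The second EHF promoter held TTTAT or ATAAA 3 times, and AGATAA or its reverse complement, a core for GATA factors, once, a motif found in 9.17% of all promoters.

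CDX2 was present in HCT116 and was not detected in the libraries labelled LOVO. CDX2 (ENSG00000165556; GRCh38 chromosome 13, 27962137 to 27971139, minus strand) was at 3.84 FPKM from 323 reads in HCT116 adherent cells. In HCT116 spheroids it was at 3.12 FPKM from 216 reads. Both LOVO libraries had 0 reads, which allows a level of up to 0.0406 FPKM in adherent cells and 0.0362 in spheroids by a floor of 3 reads. In bulk RNA, fewer cells with a gene and less of its RNA per cell cannot be told apart. CDX2 was 94.7-fold higher in HCT116 adherent cells and 86.2-fold higher in HCT116 spheroids than the floor of the LOVO library of the same form. These folds leave out the counting error of the HCT116 values. With it, the 95% counting interval of the log2 ratio of LOVO to HCT116 reached up to -6.26 in adherent cells and -6.12 in spheroids. Within HCT116 the log2 ratio of spheroid to adherent level was -0.30 (95% Clopper-Pearson counting interval -0.56 to -0.05). Intervals and floors here cover counting error only, not the spread between cultures. CDX1 (ENSG00000113722; chromosome 5, 150166795 to 150184558, plus strand), the paralog of CDX2, had 1 read in HCT116 adherent cells and 0 in the other libraries, so it was at or under the floor everywhere. The 8 other GATA and ParaHox genes include only 1 with a mean of at least 1 FPKM, GATA2, which was at 4.50, 9.01, 7.97 and 13.3 FPKM in HCT116 adherent cells, HCT116 spheroids, LOVO adherent cells and LOVO spheroids. Levels below that list 4 libraries are given in this order.

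**Figure D1:**
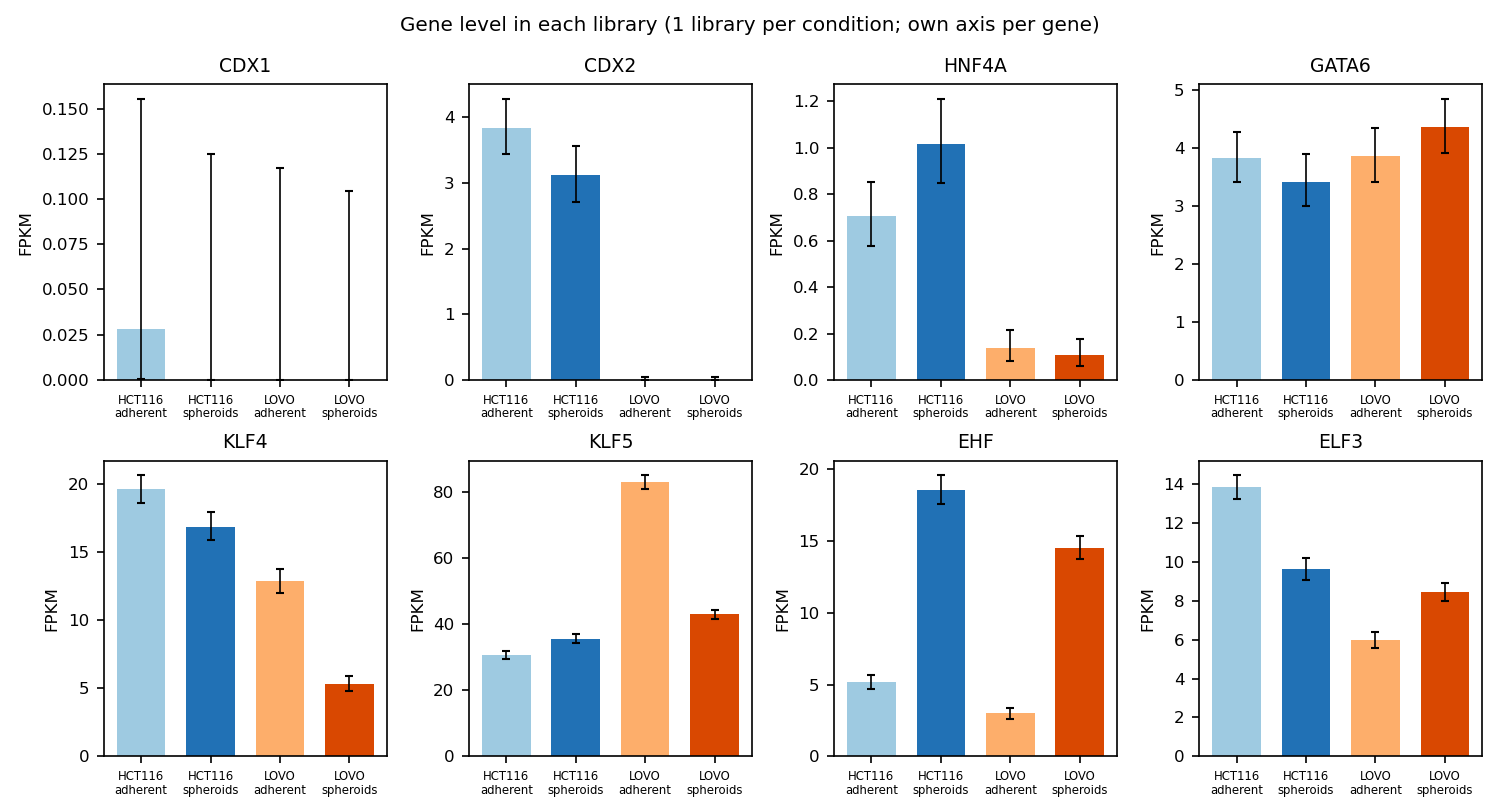
FPKM of each of the 8 factors (y axis, own scale per gene) in the 4 libraries (x axis), with 1 library per bar and 95% exact Poisson counting intervals as whiskers. CDX2 is at 3.84 and 3.12 FPKM in HCT116 and at 0 in both LOVO libraries, and EHF is higher in the spheroids of both lines than in either adherent library.

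HNF4A was low in HCT116 and close to absent in the libraries labelled LOVO, and GATA6 was nearly level across all 4. HNF4A (ENSG00000101076; chromosome 20, 44355700 to 44434596, plus strand) was at 0.705, 1.02, 0.137 and 0.109 FPKM, from 105, 125, 18 and 16 reads. Its log2 ratio of spheroid to adherent level was 0.53 in HCT116 (counting interval 0.14 to 0.92) and -0.34 in LOVO (-1.40 to 0.72), so that in LOVO the depth did not allow a difference to be detected. HNF4A was 5.13-fold higher in HCT116 than in LOVO among adherent libraries and 9.36-fold higher among spheroids. GATA6 (ENSG00000141448; chromosome 18, 22169443 to 22202528, plus strand) was at 3.83, 3.42, 3.86 and 4.37 FPKM, from 308, 227, 273 and 347 reads. Its counting interval included 0 within HCT116 (-0.42 to 0.09), within LOVO (-0.05 to 0.41) and between the adherent libraries (-0.23 to 0.25). Between the spheroid libraries the log2 ratio of LOVO to HCT116 was 0.35 (0.11 to 0.60). Of the exonic bases of GATA6, 14.2% are shared with 2 antisense genes, and because the sources used here do not say whether reads were counted by strand, these cannot be told apart from GATA6. The antisense gene GATA6-AS1 itself had 20 to 57 reads.

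By FPKM, with the gene length of the table, KLF5 was the highest of the 8 factors in every library, and KLF4 was second in both adherent libraries. With the median length of protein-coding transcripts, KLF5 was below KLF4 in both HCT116 libraries and below EHF in both spheroid libraries. KLF5 (ENSG00000102554; chromosome 13, 73054976 to 73077542, plus strand) was at 30.5, 35.6, 82.9 and 42.9 FPKM, from 2422, 2327, 5786 and 3361 reads. Among the 1553 genes to which the table gives a transcription factor family, KLF5 ranked 43, 25, 14 and 26. It made up 39.4%, 40.4%, 76.3% and 56.7% of the summed FPKM of the 8 genes. KLF4 (ENSG00000136826; chromosome 9, 107484852 to 107490482, minus strand) was at 19.6, 16.9, 12.8 and 5.32 FPKM, from 1462, 1036, 842 and 392 reads. In LOVO both were lower in spheroids, KLF4 by 2.41-fold (log2 ratio -1.27, counting interval -1.45 to -1.09) and KLF5 by 1.93-fold (-0.95, -1.01 to -0.89). In HCT116 the differences were small and of unlike sign, with log2 ratios of -0.22 for KLF4 (-0.33 to -0.10) and 0.22 for KLF5 (0.14 to 0.30). The lines differed in the adherent libraries, where KLF5 was 2.72-fold higher in LOVO and KLF4 1.53-fold higher in HCT116. Among spheroids KLF5 was 1.21-fold higher in LOVO, whereas KLF4 was 3.17-fold higher in HCT116.

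EHF was higher in the spheroids of both lines, whereas the related factor ELF3 was lower in HCT116 spheroids and higher in LOVO spheroids. EHF (ENSG00000135373; chromosome 11, 34621093 to 34661057, plus strand) had 460 reads and 5.15 FPKM in HCT116 adherent cells and 1367 reads and 18.6 FPKM in HCT116 spheroids. In LOVO it had 235 reads and 2.99 FPKM in adherent cells and 1279 reads and 14.5 FPKM in spheroids. Both spheroid libraries thus lay above both adherent libraries. The ratio of spheroids to adherent cells was 3.61-fold in HCT116 and 4.85-fold in LOVO, with counting intervals of the log2 ratio from 1.70 to 2.01 and from 2.08 to 2.49. ELF3 (ENSG00000163435; chromosome 1, 202007945 to 202017188, plus strand) was at 13.8, 9.60, 5.96 and 8.44 FPKM, from 2027, 1160, 769 and 1221 reads. Its log2 ratio of spheroid to adherent level was -0.53 in HCT116 (-0.63 to -0.42) and 0.50 in LOVO (0.37 to 0.63). ELF3 shares 18.5% of its exonic bases with 2 other genes, and the antisense gene ELF3-AS1 had 143, 143, 177 and 230 reads. The exons of the other 6 factors, EHF among them, overlap no other annotated exon.

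The order of the ETS pair differed between growth forms. The FPKM ratio of EHF to ELF3 was 0.372 in HCT116 adherent cells (counting interval 0.336 to 0.412) and 1.93 in HCT116 spheroids (1.79 to 2.09). In LOVO it was 0.501 in adherent cells (0.431 to 0.581) and 1.72 in spheroids (1.59 to 1.86). EHF was below ELF3 in both adherent libraries and above it in both spheroid libraries. This order held in sign when the length of the gene was replaced by the median or the longest length of its protein-coding transcripts. With the median length the log2 ratio in LOVO adherent cells was only -0.208, against -0.997 with the gene length of the table. No counting interval was computed with transcript lengths, so whether that order lay beyond counting error was not tested. On the log2 scale the ratio was higher in spheroids by 2.38 in HCT116 and by 1.78 in LOVO, values that do not depend on the scaling between libraries. The ratio of KLF5 to KLF4 ordered the lines instead, at 1.56 and 2.11 in HCT116 adherent cells and spheroids and at 6.46 and 8.06 in LOVO. Which KLF factor was higher in HCT116 depended on the length used, and with the median length of protein-coding transcripts the log2 ratio was -0.50 in adherent cells and -0.063 in spheroids. In both HCT116 libraries CDX2 and GATA6 were neighbours in the order of levels and did not differ beyond counting error. The rank of EHF among transcription factor genes was 426 in HCT116 adherent cells and 88 in HCT116 spheroids, and 558 and 136 in LOVO.

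**Figure D2:**
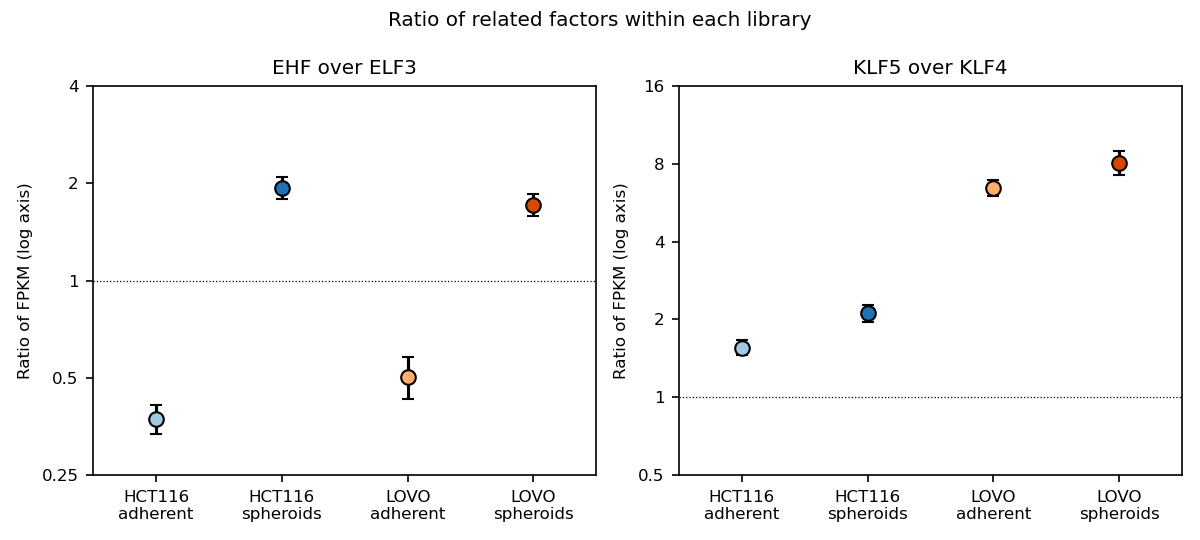
Ratio of FPKM (log axis) of EHF to ELF3 and of KLF5 to KLF4 in each of the 4 libraries, with 95% Clopper-Pearson counting intervals as whiskers and a dotted line at equal levels. The EHF ratio is 0.372 and 0.501 in the adherent libraries and 1.93 and 1.72 in the spheroids, and the KLF5 ratio is 1.56 to 2.11 in HCT116 and 6.46 to 8.06 in LOVO.

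The factors were then compared with all other genes after adding 1 to the FPKM and taking log2, a scale on which low levels appear to differ less than they do. Of the 58735 genes, 14429 had a mean of at least 1 FPKM over the 4 libraries, and 6 of the 8 factors were among them, while CDX1 and HNF4A were not. A gene near 0 in 1 line could pass this filter through the other line alone, as CDX2 did through HCT116. At the threshold the study used, a difference of 2, none of the 6 was past it in either line, against 0.201% of genes higher and 0.506% lower in HCT116 spheroids and 1.81% higher and 0.943% lower in LOVO spheroids. With pseudocounts of 0.1 and 0.01 in place of 1, and with TPM, EHF was past 2 in LOVO. At a threshold of 1, EHF alone was higher in HCT116 spheroids, by 1.67, where 2.19% of all genes were higher and 3.33% lower. In LOVO spheroids EHF was higher by 1.96, where 8.57% of all genes were past 1, and KLF4 was lower, at -1.13, where 7.85% were. The other values were -0.23 for CDX2, -0.21 for KLF4, 0.21 for KLF5, -0.13 for GATA6 and -0.48 for ELF3 in HCT116. In LOVO they were -0.93 for KLF5, 0.14 for GATA6 and 0.44 for ELF3, and CDX2 had no reads to compare. The median over the 6 factors was -0.17 in HCT116 and 0.07 in LOVO, beside -0.03 and -0.06 over all genes.

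EHF was past 1 in the spheroids of both lines, as were 93 of the 14429 genes (0.645%). By the smaller of its differences in the lines, 1.67, only 9 genes were above it, and none of the 920 other genes compared that the table gives a transcription factor family was. That set of genes was chosen after the table was seen. Among these 921 genes, 2 were past 1 in both lines (0.217%), EHF and HES7, a bHLH repressor with differences of 1.03 and 2.19. KLF5, GATA6 and ELF3 had differences of opposite sign in the lines, as did 35.8% of all genes.

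**Figure D3:**
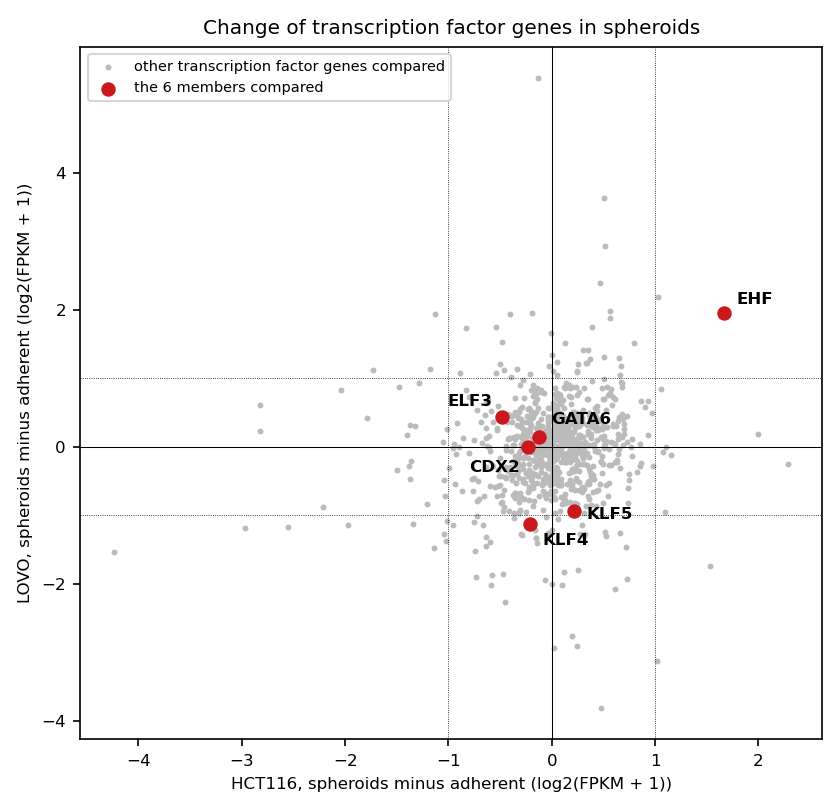
Difference in log2(FPKM + 1) between spheroids and adherent cells in HCT116 (x axis) and LOVO (y axis) for the 921 transcription factor genes compared, each a grey point, with the 6 factors in red and dotted lines at 1 and -1. EHF lies at 1.67 and 1.96, apart from the other points in the upper right, and the other 5 factors lie between -0.48 and 0.21 in HCT116.

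With limma, the lines stood in for replicates of the growth form, with cell line as a covariate and 1 residual degree of freedom. The change of EHF in spheroids over both lines was 1.81 (SE 0.25) with an unadjusted limma p of 0.000929 and a Benjamini-Hochberg adjusted p of 0.462, which did not pass 0.05. No gene passed in this limma fit (0%), and 1545 genes (10.7%) had an unadjusted p under 0.05. The other 5 factors had limma changes between -0.67 for KLF4 and 0.01 for GATA6, with adjusted p from 0.482 to 0.991.

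Between the lines, CDX2 was the factor that differed most in both growth forms. The differences of LOVO minus HCT116 in adherent cells were -2.28 for CDX2, -1.09 for ELF3, -0.62 for EHF, -0.57 for KLF4, 0.01 for GATA6 and 1.41 for KLF5. At a threshold of 2 this put CDX2 alone among the factors lower in LOVO, where 5.59% of all genes were. At a threshold of 1, ELF3 was lower as well (16.4% of all genes) and KLF5 was higher (17.4%). Among spheroids the differences were -2.04 for CDX2, -1.50 for KLF4, -0.34 for EHF, -0.17 for ELF3, 0.26 for KLF5 and 0.28 for GATA6. Here CDX2 again was past 2 (4.71% of all genes lower), and CDX2 and KLF4 were past 1 (15.0% lower). The difference of GATA6 in adherent cells changed sign with TMM-style scaling and with centring, and that of ELF3 in spheroids changed sign with TPM. The 2 comparisons have no library in common, but each library also enters a comparison within its line.

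**Figure D4:**
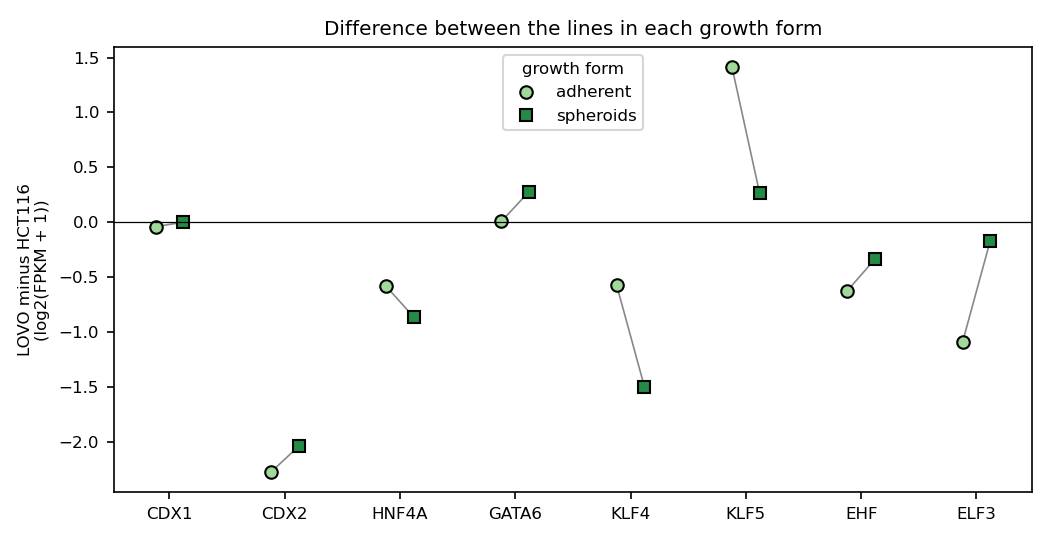
Difference of LOVO minus HCT116 in log2(FPKM + 1) (y axis) for each factor, with circles for adherent libraries and squares for spheroids, 1 library of each line per point. CDX2 is lower in LOVO in both forms (-2.28 and -2.04), KLF5 is higher by 1.41 in adherent cells and by 0.26 in spheroids, and GATA6 lies near 0.

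In the limma fit of cell line with growth form as a covariate, CDX2 was lower in LOVO with a change of -2.16 (SE 0.29) and an adjusted p of 0.0134, in 2 of 2 growth forms. CDX2 passed the filter on the mean only through HCT116, so it could only be called lower in LOVO. The call therefore adds no support beyond the levels themselves. That fit called 24.7% of the 14429 genes, 12.1% of them lower in LOVO. The limma call of CDX2 was lost when genes with low values were kept (adjusted p 0.289), a fit that called 0 of 58735 genes, with 6918 at an unadjusted p under 0.05. Over the alternatives in which CDX2 was compared, its limma adjusted p ranged from 0.00938 to 0.289. The size of the fitted change of CDX2 depends on the pseudocount, because both LOVO libraries were at 0 reads. KLF4 had a limma change of -1.04 (SE 0.32) with an adjusted p of 0.0749, and the other 4 factors had adjusted p from 0.153 to 0.700. The libraries of a line stand in for replicates here, with growth form fitted as a covariate. These p-values therefore rest on how far the line difference varied between growth forms, with a spread partly borrowed from all genes. They do not measure the spread between cultures of a line.

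The relatives of the factors within their families were read next. Between growth forms, 2.19% of all genes were higher past 1 and 3.33% lower in HCT116 spheroids. For LOVO spheroids these shares were 8.57% and 7.85%, and the counts of the lists are to be read beside them. Of the 15 other ETS genes compared, none was higher past 1 in HCT116 spheroids and ETS1 was lower, at 12.5 FPKM in adherent cells and 5.00 in spheroids. In LOVO spheroids 2 of the 15 were higher past 1, ETV4 (4.36 and 16.0 FPKM) and ETS1 (6.02 and 14.3), so ETS1 differed in opposite directions in the lines. Of the 11 other KLF genes compared, none was past 1 in HCT116 and KLF15 was lower in LOVO spheroids, at 2.76 and 0.820 FPKM. KLF2 was at 34.0 and 17.5 FPKM in HCT116 and at 0.636 and 1.08 in LOVO, and 5 of the 11 were lower past 1 in LOVO adherent cells, with 1 higher, beside 16.4% and 17.4% of all genes. Of 27 other transcription factors of the gut, 13 were compared. None was past 1 in HCT116, and VDR, the vitamin D receptor, was higher in LOVO spheroids (7.36 and 16.7 FPKM). Between adherent libraries 6 of the 13 were lower past 1 in LOVO and 3 were higher, beside 16.4% and 17.4% of all genes. SOX9, a factor of crypt cells, was at 39.8 and 64.4 FPKM in HCT116 and at 0.0567 and 0.467 in LOVO. GRHL2 and OVOL1, which maintain epithelial gene expression, were at 5.57 to 6.94 FPKM in HCT116 and at no more than 0.0145 in LOVO, whereas FOXA1 was at 0.567 FPKM in HCT116 and 5.80 in LOVO adherent cells. SOX9, GRHL2 and OVOL1 passed the filter on the mean only through HCT116, and FOXA1 only through LOVO, which favoured these directions. The limma fit of cell line called 2 of the 13 higher and 4 lower in LOVO, 1 of the 11 KLF genes higher and 4 lower, and 3 of the 15 ETS genes higher and 2 lower, where 12.6% of all genes were called higher and 12.1% lower. The limma fit of growth form called none of them.

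Genes of mature intestinal cells, which factors of this kind are known to switch on, were mostly below 1 FPKM, as were most genes of the table. Of 60 genes in 5 lists (brush border structure, brush border hydrolases, surface proteins, lipid handling and nutrient transport, and colonocyte differentiation), 43 were below 1 FPKM in all 4 libraries. The number at 1 FPKM or more was 10, 14, 8 and 8. For comparison, between 22.2% and 24.4% of all genes of the table were at 1 FPKM or more. The table also holds non-coding genes, and no such share was computed for protein-coding genes alone. Low levels can therefore not be called particular to these lists. Of the 12 brush border structure genes, 5 were compared, and all 5 were lower past 1 in LOVO in both growth forms, beside 16.4% of all genes in adherent cells and 15.0% in spheroids. EZR, which encodes ezrin, was at 808.9, 576.5, 87.4 and 47.0 FPKM, and ESPN, which encodes the actin bundling protein espin, was at 18.8, 23.6, 1.87 and 0.894. The limma fit called 4 of the 5 lower in LOVO, beside 12.1% of all genes. USH1C was lower in LOVO spheroids (4.47 and 0.314 FPKM) and EPS8 was higher (0.917 and 3.14), and none of the 5 was past 1 in HCT116. Over all genes, 7.85% were lower and 8.57% higher past 1 in LOVO spheroids, and 3.33% and 2.19% in HCT116 spheroids.

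Of the 12 hydrolases, 2 were compared. DPP4 was at 1.67 and 3.15 FPKM in HCT116 and had 0 reads in LOVO, and ALPI, the intestinal alkaline phosphatase, was at 0.0186 and 0 FPKM in HCT116 and at 1013 and 163.5 in LOVO. ALPI is uncertain, because its relative ALPP, the placental enzyme, was at 959.1 and 63.9 FPKM in the same LOVO libraries and reads can be shared between related genes. ALPG, another alkaline phosphatase gene beside them, was at 12.3 and 0.718 FPKM there. Whether reads were shared was not tested. Of the 10 surface proteins, 2 were compared. TSPAN1 was at 2.53, 5.94, 0.872 and 13.4 FPKM, higher in LOVO spheroids by 2.94 and in HCT116 spheroids by 0.97, and TSPAN8 was at 0.0390 and 0 FPKM in HCT116 and 5.98 and 10.7 in LOVO. None of the 13 genes of lipid handling and nutrient transport had a mean of 1 FPKM. Of the 13 colonocyte genes, 4 were compared, and KRT20, a keratin of mature colonocytes, was at 0.930 and 7.45 FPKM in HCT116 adherent cells and spheroids, a difference of 2.13, and at 0.0302 and 0.0538 in LOVO. CA2, carbonic anhydrase, was at 24.8 and 17.8 FPKM in HCT116 and at 0.630 and 0.515 in LOVO. The limma fit of cell line called 1 of the hydrolases higher and 1 lower in LOVO, 1 of the surface proteins higher and 1 of the colonocyte genes lower, beside the same 12.6% higher and 12.1% lower over all genes. DPP4, KRT20 and CA2 passed the filter on the mean only through HCT116, and ALPI and TSPAN8 only through LOVO, which favoured these directions.

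Of 13 genes of intestinal stem cells, 9 were compared and none was past 1 in the spheroids of either line. Over all genes, 2.19% were higher and 3.33% lower past 1 in HCT116 spheroids, and 8.57% and 7.85% in LOVO spheroids. CDCA7 was closest in HCT116, at 8.46 and 3.78 FPKM, and AXIN2, a target of WNT signalling, was at 3.02 and 6.63. Between the lines 6 of the 9 were lower past 1 in LOVO in both growth forms, beside 16.4% of all genes in adherent cells and 15.0% in spheroids. These 6 were SOX9, MSI1, EPHB2, AXIN2, RNF43 and TNFRSF19, all below 1 FPKM in both LOVO libraries. They passed the filter on the mean only through HCT116, so the filter favoured lower calls in LOVO, also in the limma fit. The limma fit of cell line called 6 lower and 1 higher, beside 12.1% and 12.6% of all genes. MSI1, an RNA-binding protein, was at 7.34 and 8.96 FPKM in HCT116 and at 0 and 0.0804 in LOVO, and AXIN2 was at 0 and 0.0190 in LOVO. CDCA7 was higher in LOVO, at 26.2 and 16.5 FPKM. The limma fit of growth form called no gene of any list.

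**Figure D5:**
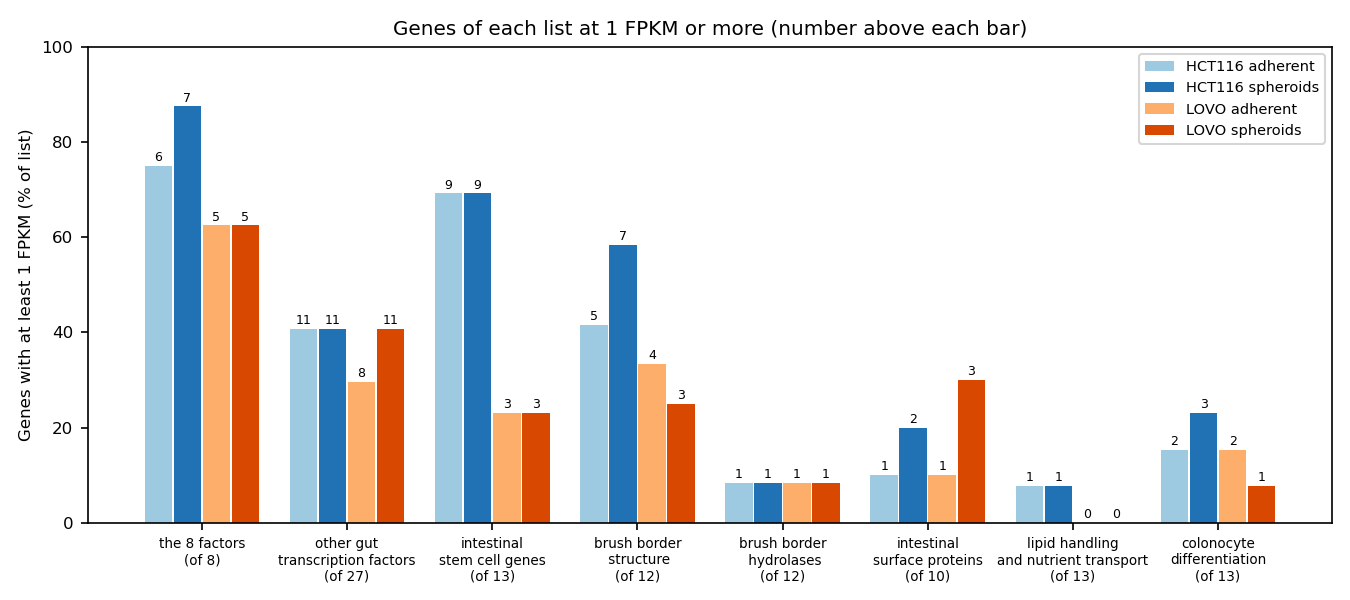
Share of the genes of each list that were at 1 FPKM or more (y axis, % of the list) in the 4 libraries, with the number of genes above each bar and the size of the list under it. Of the 8 factors 6, 7, 5 and 5 were at this level, where 52.2% to 58.5% of all transcription factor genes of the table were. Each library had 1 of the 12 hydrolases at this level, DPP4 in HCT116 and ALPI in LOVO. Of the 13 lipid and nutrient genes, 1, 1, 0 and 0 were.

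Finally the genes with the most similar pattern over the 4 libraries were found for each factor, as the smallest Euclidean distance between log2(FPKM + 1) values centred on the mean of each gene. With 4 libraries and 14429 genes this describes likeness only. The nearest to EHF was ALDOC, an aldolase of glycolysis, at 21.5, 64.0, 10.5 and 44.5 FPKM and a distance of 0.28, followed by AC020913.3 and AC132008.1. No other factor had a nearest gene so far away, and for the rest of the 8 the nearest lay at 0.02 to 0.07. The nearest to CDX2 were IGSF9B (3.91, 3.18, 0 and 0 FPKM), SRC and RAPGEF5. For KLF5 they were RTL6, PPP4R3B and UPK3B, the last a urothelial membrane protein at 0.498, 0.873, 3.29 and 1.29 FPKM. For KLF4 they were RPL30, NR1D2 and GNPDA1, for ELF3 MIR3136, KDM1B and SRGAP2, and for GATA6 MON1A, SEC22A and FBXO46. Those of HNF4A, TMEM159, ZCCHC14 and TRIM4, and those of CDX1, EMC1, TYW1B and WWTR1, were matched to factors at low levels.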

How the data were processed

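RNA-seq of 4 libraries, 1 per condition, was analysed. The authors deposited 1 FPKM value per gene and library for 58735 genes. The aligner, counter and strand setting were not given in the sources used here. The submitters' processing notes name the mouse builds GRCm38 and mm10, but all 58735 gene IDs were found in human GENCODE 29 and 58690 had its GRCh38 coordinates, which were used. FPKM multiplied by gene length was a whole multiple of 1 step per library for 100% of values (tolerance 0.01 reads), which gave back the reads. Reads on genes numbered 15483569 to 20429147. The library sizes behind the FPKM were 0.907 to 1.09 times these, so the values carry a scaling.

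Differences were taken on log2(FPKM + 1) for genes with a mean of at least 1 FPKM. With 1 library per condition no p-value was computed within a line. Clopper-Pearson and Poisson intervals (95%, scipy 1.17.1) and a floor of 3 reads cover counting error only. limma 3.58.1 (R 4.3.3, lmFit and eBayes with trend) was fitted on 14429 genes with growth form and cell line as terms and Benjamini-Hochberg adjustment. It was also run on simulated data with changes alike in both lines and little noise. That run was a check of the code only and does not show how the fit behaves on these data. Promoters are from RefSeq, matched by symbol for 7 of the 8 genes (all but CDX1). The nearest genes were the 3 closest per factor, and list genes named were up to 4 per comparison with the largest differences, from 10 lists. The promoters shown, HES7, ALPP and ALPG were chosen after values were seen. The members and lists were chosen with earlier results of these data known. Alternatives were pseudocounts of 0.1 and 0.01, no filter, a mean of at least 5 FPKM, TPM, TMM-style scaling, median centring, protein-coding genes only, a threshold of 1, limma without the covariate, and, added after seeing the data, transcript lengths.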

Additional observations from a re-analysis of the deposited data

Results flagged for a closer look

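Of the 6 factors compared, 3 had spheroid differences of opposite sign in the lines, in log2(FPKM + 1). For KLF5 they were 0.21 in HCT116 and -0.93 in LOVO, so that LOVO minus HCT116 was -1.15. For ELF3 they were -0.48 and 0.44, with LOVO minus HCT116 at 0.92. For GATA6 they were -0.13 and 0.14, with LOVO minus HCT116 at 0.27, and the counting interval of its log2 ratio included 0 in each line. With 1 library per condition the difference between the lines was not tested, and 35.8% of all genes compared had opposite signs.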

How the results depend on the processing

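The number of factors past a difference of 2 was 0 in HCT116 and became 1 at a threshold of 1. In LOVO it was 0 and became 1 (EHF) with pseudocounts of 0.1 and 0.01 and with TPM, and 2 at a threshold of 1. Between the lines it was 1 (CDX2) in both growth forms. It became 3 in adherent cells and 2 in spheroids at a threshold of 1, and 0 in both at a mean of at least 5 FPKM, which leaves out CDX2. The limma count of 1 between the lines became 0 with no filter and at a mean of at least 5 FPKM. The limma count of 0 between growth forms was 0 under every alternative run, with adjusted p of EHF from 0.363 to 1.0. With the median length of protein-coding transcripts, the log2 ratio of KLF5 to KLF4 was -0.50 in HCT116 adherent cells and -0.063 in HCT116 spheroids, against 0.64 and 1.08 with the gene length of the table, and that of KLF5 to EHF was -1.05 in HCT116 spheroids and -0.43 in LOVO spheroids, against 0.94 and 1.57. The difference of GATA6 between adherent lines was 0.01 and became -0.00069 with TMM-style scaling and -0.04 with centring. That of ELF3 between spheroids was -0.17 and became 0.05 with TPM, which moved the median of all genes to 0.13 in adherent cells and 0.26 in spheroids for LOVO minus HCT116. Under TPM the limma fit of cell line called 2297 genes higher and 1546 lower in LOVO, against 1822 and 1742.

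The replicate numbers pair no samples, with 1 library per condition and the number 1 on all 4. Libraries were paired only by cell line, as the covariate in the limma fit of growth form. With 1 library per condition no replicate was left out. The number of reads limits the values of CDX1, HNF4A in LOVO and GATA6, and the spread between cultures is unknown for every value.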

Other observations

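The annotated neighbours of CDX2 on chromosome 13, chosen after values were seen, were read beside it. PDX1, another homeobox gene of the same ParaHox cluster, lies 35906 bases away and had 104 and 80 reads in HCT116 adherent cells and spheroids and 0 in both LOVO libraries. FLT3, at a distance of 32135 bases on the other side, had 31 and 40 reads in HCT116 and 0 in both LOVO libraries. GSX1 and URAD, also near CDX2, had 0 reads in all 4 libraries.

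Beside EHF on chromosome 11 lies ELF5, another ETS gene, at a distance of 107288 bases. It had 9 reads in HCT116 adherent cells and 33 in HCT116 spheroids, and 0 and 13 reads in LOVO, at no more than 0.437 FPKM. Of the next genes, CAT had lower levels in spheroids of each line than in adherent cells. PDHX was higher in LOVO spheroids and nearly level in HCT116, and APIP was nearly level in LOVO. CAT was at 27.2 and 24.5 FPKM in HCT116 and 16.0 and 9.54 in LOVO, and APIP was at 6.41 and 4.95 in HCT116 and 1.43 and 1.42 in LOVO. PDHX was at 7.96 and 8.12 FPKM in HCT116 and 13.8 and 22.1 in LOVO.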
